A study of Mus musculus with 18 samples.

Results

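Vitrified mouse hippocampus was set against fresh mouse hippocampus, gene by gene, by sequencing of poly(A) RNA. The comparison takes the 6 libraries of the hippocampus count table that are labelled vitrified or fresh, 3 of each, out of 18 libraries in the series; the others are snap-frozen hippocampus and the same 3 states of cerebral cortex. For the vitrified libraries, tissue was loaded with cryoprotectant at 25%, 50%, 75% and 100% of full strength, 5 min at each strength. The full solution held 28 wt% ethylene glycol and 22.3 wt% DMSO, which enter cells, 17.1 g of sucrose, which does not, and 32.6 wt% PBS. The loaded tissue was held in liquid nitrogen for 5 min, kept at -80 °C for 4 days, thawed with agitation at 37 °C, and unloaded in falling steps of a second solution with 34.2 g of sucrose and then PBS. Fresh hippocampus is labelled as an untreated control. All groups were then lysed in TRIzol, and stranded libraries made from oligo-dT-selected RNA were read on a DNBSEQ instrument. The labels give no strain, genotype, sex or age, and do not say whether libraries of a group came from separate animals, so each p-value is set against a spread between libraries that could be technical alone. The vitrified tissue also passed through incubations, 4 days of storage and rewarming that the fresh tissue did not, and these steps cannot be told apart from vitrification itself.

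In vitrification, high concentrations of solutes let water solidify as a glass instead of as ice crystals. Cells lose and regain water as the solutes enter and leave, and the solutes have chemical effects of their own. The hippocampus is built from densely packed granule cells of the dentate gyrus and pyramidal neurons of fields CA1 to CA3. Around them lie astrocytes, which take up glutamate and potassium and line blood vessels with their endfeet, as well as oligodendrocytes, microglia and the vascular wall. Ependymal cells with motile cilia line the neighbouring ventricle.

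The deposited counts summed to 15808819 to 15987074 in the vitrified libraries and 16908624 to 17022164 in the fresh ones, so depth moved with the group by a small amount, and its part in the results was not tested. Levels are given as per-million counts (CPM), relative to library totals corrected for composition. The label hippocampus was checked against fresh cortex, here in CPM of plain library totals, since the tissues were scaled apart. The dentate marker C1ql2 was at 107 to 116 CPM in vitrified hippocampus, 69.4 to 74.5 CPM in fresh hippocampus and 1.77 to 2.52 CPM in fresh cortex. The CA1 marker Fibcd1 was at 209 to 213 CPM in vitrified hippocampus, 269 to 270.3 CPM in fresh hippocampus and 18.3 to 19.8 CPM in fresh cortex. Drd1, a dopamine receptor of the striatum, was at 3.19 to 5.31 CPM in vitrified hippocampus and 4.02 to 4.52 CPM in fresh hippocampus, against 50.6 to 55.0 CPM in fresh cortex. Adora2a (65.9 to 68.3 CPM) and Rgs9 (108 to 112 CPM) of the striatum and Ttr of choroid plexus (283 to 369.7 CPM) were also above hippocampus in fresh cortex. Kl of choroid plexus was lower there (11.2 to 12.6 CPM). How much striatum and choroid plexus the cortex libraries held was not tested, and the same libraries serve the comparison of tissues below. Of 8 hippocampal markers 7 were above fresh cortex in all 6 hippocampus libraries, and Wfs1 was lower, at 129 to 134 CPM in vitrified and 127 to 134 CPM in fresh hippocampus against 142 to 147 CPM in fresh cortex. Of 6 markers of cortical layers 4 were below fresh cortex in all 6 libraries and 2 were above it, namely Fezf2 with 40.9 to 43.2 CPM in vitrified and 42.6 to 47.4 CPM in fresh hippocampus against 24.6 to 29.5 CPM in fresh cortex, and Scnn1a with 7.75 to 9.57 CPM and 5.77 to 6.33 CPM against 3.804 to 4.67 CPM.

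About the same number of genes were higher as were lower. Of 14528 genes tested with the quasi-likelihood test of edgeR, 3463 (23.8%) were higher and 3672 (25.3%) lower in vitrified hippocampus at a Benjamini-Hochberg adjusted p under 0.05, 49.1% in all. Most of these changes were small, with a median size of 0.28 on the log2 scale, since replicates differed little: beyond sampling noise the shared coefficient of variation was 1.69%. Changes over 2-fold were more often falls, with 383 genes (2.64%) lower and 167 (1.15%) higher. The 3 vitrified libraries did not overlap the 3 fresh ones for 54.6% of genes. Scaling by library totals alone, without composition factors, moves the median gene by 0.05 on the log2 scale; 4806 genes were then higher and 2835 lower, so that 62.9% of the called genes were higher, against 48.5% in the main fit. Counts below for gene lists are read against 23.8% higher, 25.3% lower and a median log2 fold change of 0.01 over all genes tested.

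Transcripts of astrocytes fell the furthest of the cell types described here. Of 49 astrocyte genes tested, 47 fell and 0 rose, 36 of them by more than 2-fold, and the median log2 fold change was -1.26. The levels of all 49 summed to 7607 to 7736 CPM in vitrified hippocampus, against 18066 to 18588 CPM in fresh hippocampus. The 2 that did not pass were Id3 (-0.01 ± 0.07) and Hes5 (-0.20 ± 0.11), both transcriptional regulators, named after their values were seen. Hes5 did pass, as lower, with offsets for GC content and length (-0.27, edgeR adjusted p 0.0447). In bulk RNA, fewer cells of a type and less RNA per cell cannot be told apart, here or for any cell type below.

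Slc1a2, the main glutamate transporter of the forebrain (ENSMUSG00000005089.15, GRCm38 chromosome 2, 102658659 to 102790784, plus strand), had 1064, 1073 and 1085 CPM in the vitrified libraries, against 3113, 3061 and 3096 CPM in the fresh ones. Gfap, the intermediate filament of astrocytes (ENSMUSG00000020932.14, GRCm38 chromosome 11, 102887336 to 102900912, minus strand), had 155, 152 and 160.1 CPM in vitrified and 476, 472 and 445 CPM in fresh hippocampus. Aqp4, the water channel of astrocyte endfeet, was at 45.9, 46.8 and 48.1 CPM in vitrified and 147, 148 and 145 CPM in fresh hippocampus. In all 3 genes every vitrified library lay far below every fresh one. Slc1a2 was 2.88-fold lower, Gfap 2.98-fold and Aqp4 3.13-fold. On the log2 scale, on which all values with ± below are fold changes of vitrified over fresh hippocampus with their standard errors (SE), Slc1a2 was at -1.52 ± 0.02 (edgeR adjusted p = 1.5e-47).

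The fall ran through every function in the astrocyte list. All 8 genes of water and potassium handling fell, from -1.71 ± 0.08 for the inward rectifier Kcnj16 and -1.58 ± 0.03 for Kcnj10, the main potassium channel of astrocytes, to -0.86 ± 0.02 for the pump subunit Atp1b2. Mlc1, a membrane protein of perivascular endfeet, fell as well (-1.50 ± 0.03). Among transporters of transmitters and glutamine synthetase, all 5 fell, with Slc1a3 at -1.56 ± 0.02, Glul, the glutamine synthetase itself, at -1.19 ± 0.03 and the GABA transporter Slc6a11 at -1.29 ± 0.03; the glycine transporter Slc6a9 was the least changed, at -0.20 ± 0.05. The gap junction proteins Gja1 (-1.27 ± 0.03) and Gjb6 (-1.17 ± 0.06) fell alike. Aldh1l1, a folate enzyme used as a pan-astrocyte marker, had 22.5, 21.9 and 23.2 CPM in vitrified and 69.8, 71.9 and 69.4 CPM in fresh hippocampus. All 13 metabolic genes fell, including Aldoc, the brain aldolase (-1.38 ± 0.02), Apoe and Clu, which carry lipid (-1.18 ± 0.02 and -1.27 ± 0.02), and Gldc of glycine cleavage (-1.76 ± 0.05). The secreted and surface genes also fell, 12 of 12, for example Sparcl1 (-1.04 ± 0.02), the receptor Gpr37l1 (-1.42 ± 0.03) and the zinc transporter Slc39a12 (-1.71 ± 0.05).

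**Figure D1:**
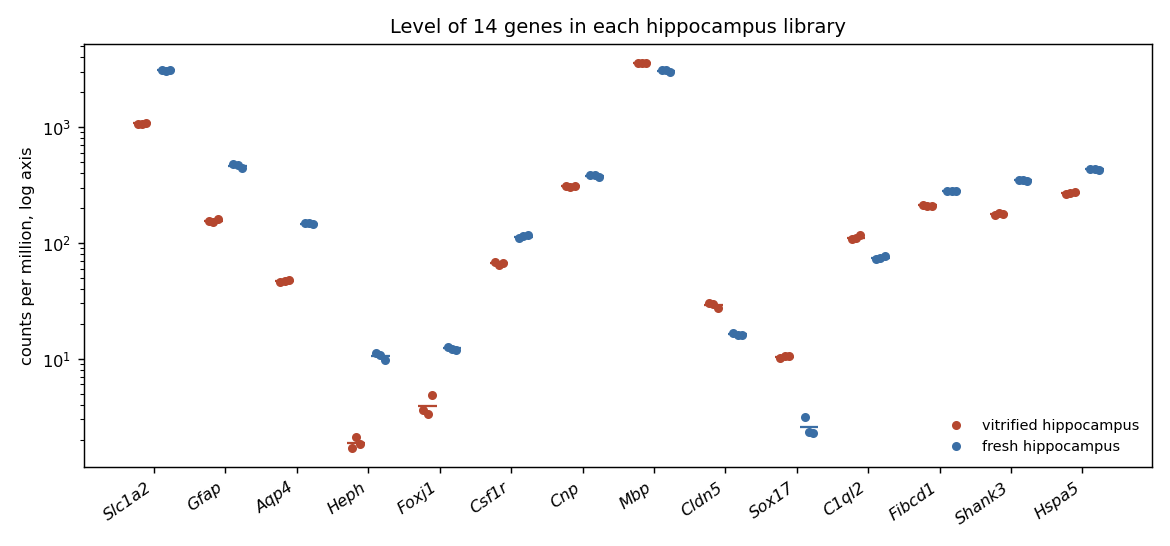
CPM (log axis) of 14 genes in each library, with vitrified hippocampus in red on the left and fresh hippocampus in blue on the right of each pair; points are the 3 libraries of a group and bars their means. The groups do not overlap for any of the 14 genes: Slc1a2, Gfap, Aqp4, Heph, Foxj1, Csf1r, Cnp, Fibcd1, Shank3 and Hspa5 are lower, and Mbp, Cldn5, Sox17 and C1ql2 higher, in vitrified tissue.

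Transcripts of ependymal cells and of motile cilia fell as well, at much lower levels. Of 44 genes tested, 32 fell, 24 of them over 2-fold, and 3 rose, with a median of -1.09; their levels summed to 272 to 276 CPM in vitrified and 321 to 339 CPM in fresh hippocampus. Foxj1, the transcription factor that switches on motile cilia (ENSMUSG00000034227.7, GRCm38 chromosome 11, 116330704 to 116335399, minus strand), had 3.57, 3.299 and 4.86 CPM in vitrified and 12.7, 12.2 and 11.9 CPM in fresh hippocampus (-1.64 ± 0.12, edgeR adjusted p = 2.4e-16). The vitrified libraries all lay below the fresh ones. Rfx2, a regulator of cilium genes, fell by less (-0.41 ± 0.18), and its relative Rfx3 was among the 3 that rose (0.08 ± 0.03), together with the radial spoke gene Rsph9 (0.18 ± 0.08) and Ccdc39, part of the ruler that sets spacing along the axoneme (0.32 ± 0.07). The calls of Rfx2, Rfx3 and Rsph9 were lost when single libraries were left out: that of Rfx2 without any 1 fresh replicate or without vitrified replicate 2 or 3 (edgeR adjusted p 0.0645 to 0.331), that of Rfx3 without fresh replicate 1 or 2 or vitrified replicate 1 or 2 (0.0509 to 0.181), and that of Rsph9 without fresh replicate 1 or 3 or vitrified replicate 2 or 3 (0.0852 to 0.255). Rfx2 was at -0.71 without vitrified replicate 1 (edgeR adjusted p 0.00187) and at -0.23 without vitrified replicate 3. With all libraries kept, DESeq2 called none of these 3 genes (DESeq2 adjusted p 0.148 for Rfx2, 0.111 for Rfx3 and 0.167 for Rsph9). Rfx2 also did not pass with library totals (edgeR adjusted p 0.0857) or in a fit of only the 6 libraries (0.0566). Rsph9 did not pass with offsets for GC content and length (edgeR adjusted p 0.0637). With DESeq2, 30 genes of the list fell and 1 rose. The dynein heavy chain Dnah6 (-2.07 ± 0.19), the light intermediate chain Dnali1 (-1.79 ± 0.24), Hydin of the central pair (-2.37 ± 0.24), the adenylate kinase Ak7 (-1.95 ± 0.17) and Tmem212 (-2.02 ± 0.28) fell by more than 3-fold. Hydin had 0.564, 0.825 and 0.758 CPM in vitrified and 2.82, 4.11 and 4.24 CPM in fresh hippocampus, and Sntn, a protein of cilium tips, 0.0627, 0 and 0.126 CPM and 0.735, 0.921 and 0.737 CPM, so the largest of these folds rest on few counts.

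RFX factors bind cilium genes through X-boxes, which contain the core GTTGCC. The 300-base promoters from RefSeq (GRCm38.p6, 250 bases before to 50 after the gene start) were searched for it on both strands. It was found in 16 of 37 promoters of the ependymal list (43.2%) and in 1736 of 11423 promoters of all tested genes (15.2%). Stretches of 3 of these promoters, for genes that fell, are shown on the gene's own strand with each core or its reverse complement in capitals. They are chr14:13670795-13670830 (plus strand) for Sntn, chr9:44240510-44240545 (plus strand) for Ccdc153 and chr1:69826852-69826887 (plus strand) for Spag16.
Sntn: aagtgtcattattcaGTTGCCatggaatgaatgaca
Ccdc153: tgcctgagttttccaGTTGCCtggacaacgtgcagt
Spag16: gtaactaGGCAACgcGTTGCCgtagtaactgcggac
Ccdc153 had 1.32, 1.27 and 1.83 CPM in vitrified and 4.596, 5.77 and 5.04 CPM in fresh hippocampus (-1.80 ± 0.18), and Spag16, which stabilises the central pair, changed by -2.03 ± 0.37. Longer forms of the X-box were rarer in the ependymal promoters: GGTTGCC was found in 13.5% of them against 5.29% of all, GTTGCCNNGG in 10.8% against 3.28%, GTTGCCNNGGNNAC in 5.41% against 1.19%, GTTGCCATG in 2.70% against 0.858%, GTTGCCNNGGNAAC in 2.70% against 0.429% and GTTNCCNNGGNAAC in 2.70% against 0.648%, where N is any base and each form but the last contains GTTGCC. These matches describe the promoters and not sites of binding.

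Microglial transcripts were lower too, by less than those of astrocytes. Of 22 tested, 19 fell and 0 rose (median -0.66); Trem2 (-0.12 ± 0.10), its adaptor Tyrobp (-0.14 ± 0.10) and Aif1 (-0.21 ± 0.15), named after their values were seen, did not pass, although Aif1 did without fresh replicate 3 (edgeR adjusted p 0.0476). Csf1r, the receptor on which microglia depend, had 68.6, 64.5 and 66.99 CPM in vitrified and 109.5, 114 and 116 CPM in fresh hippocampus (-0.76 ± 0.04, edgeR adjusted p = 5.9e-23), with all vitrified libraries below all fresh ones. The fractalkine receptor Cx3cr1 (-0.74 ± 0.05), the ADP receptor P2ry12 (-0.55 ± 0.06), the integrin Itgam (-0.93 ± 0.07), the lysosomal protease Ctss (-0.72 ± 0.04) and the complement gene C1qa (-0.73 ± 0.05) fell with it. Of 6 tested markers of macrophages at the brain's borders, 4 fell and 0 rose, with the mannose receptor Mrc1 at 0.753, 0.825 and 0.631 CPM in vitrified and 1.84, 2.21 and 2.704 CPM in fresh hippocampus (3.04-fold lower).

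Oligodendrocyte transcripts were split. Of 30 tested, 18 fell and 4 rose, with a median of -0.17. Genes of myelin moved in both directions. Mbp, myelin basic protein, had 3554, 3560.0 and 3545 CPM in vitrified and 3116, 3105 and 2988 CPM in fresh hippocampus and rose by 0.21 ± 0.02, whereas Cnp, an enzyme of myelin (ENSMUSG00000006782.16, GRCm38 chromosome 11, 100574904 to 100591729, plus strand), had 308, 305 and 310.1 CPM in vitrified and 384, 387 and 368 CPM in fresh hippocampus, a change of -0.30 ± 0.02. Neither gene's libraries overlapped between the groups. The 3 others that rose were Opalin (0.23 ± 0.06) and Bcas1 (0.23 ± 0.02) of the oligodendrocyte surface and the pteridine reductase Qdpr (0.11 ± 0.03). The falls included Cldn11, which seals myelin layers (-0.50 ± 0.03), the galactolipid enzyme Ugt8a (-0.60 ± 0.04), transferrin Trf (-0.45 ± 0.02) and the lineage factor Olig2 (-0.41 ± 0.05). Among precursors, 7 of 11 fell and 0 rose, with the growth factor receptor Pdgfra at -0.31 ± 0.04 and Gpr17, a receptor of cells about to mature, at -0.57 ± 0.04.

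Endothelial transcripts went the other way. Of 52 tested, 44 rose, 16 of them over 2-fold, and 5 fell, with a median of 0.73. Cldn5, the main tight junction protein of the blood-brain barrier (ENSMUSG00000041378.2, GRCm38 chromosome 16, 18776847 to 18778262, plus strand), had 30.2, 29.9 and 27.2 CPM in vitrified and 16.5, 16.02 and 16.1 CPM in fresh hippocampus (0.85 ± 0.07, edgeR adjusted p = 3.3e-15). Sox17, an arterial transcription factor (ENSMUSG00000025902.13, GRCm38 chromosome 1, 4490931 to 4497354, minus strand), had 10.2, 10.6 and 10.5 CPM in vitrified and 3.13, 2.33 and 2.27 CPM in fresh hippocampus, 4.04-fold higher. The libraries of the groups did not overlap for either gene.

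Among endothelial transcription factors, Sox18 (1.28 ± 0.12), the flow-induced Klf2 (2.84-fold) and Klf4 (1.23 ± 0.16), Gata2 (1.76 ± 0.17) and Lef1, which acts in Wnt signalling (0.87 ± 0.15), rose. Among receptors the angiogenic Flt1 (0.98 ± 0.05), endoglin Eng (1.03 ± 0.07), the phosphatase Ptprb (0.91 ± 0.06) and Robo4 (1.36 ± 0.12) rose, 9 of 9 in all. Transporters of the barrier were mixed. The organic anion carrier Slco1a4 had 64.7, 70.9 and 67.1 CPM in vitrified and 27.1, 25.8 and 27.5 CPM in fresh hippocampus (1.33 ± 0.05), and the glucose carrier Slc2a1 rose (0.54 ± 0.04), while the thyroid hormone carrier Slco1c1 (-0.21 ± 0.05), the lactate carrier Slc16a1 (-0.27 ± 0.05) and the lysolipid carrier Mfsd2a (-0.26 ± 0.08) fell. The other endothelial falls were the junction protein Tjp1 (-0.20 ± 0.03) and the hypoxia factor Epas1 (-0.39 ± 0.03). Astrocytes are known to express Slco1c1 and Slc16a1 too. Promoters of 34 endothelial genes were searched for the letters of several short motifs, on both strands. The SOX motif AACAAT was found in 20.6% of them and in 7.23% of all promoters, and its longer form TTAACAAT in 0% and 0.394%. The ETS motif CCGGAAGT was found in 0% and 8.18%, the palindrome GCCNNNGGC in 41.2% and 28.8% and the cAMP element TGACGTCA in 5.88% and 3.44%. No match says only that these letters are not in the window.

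The rise was not general to the vascular wall. Of 13 tested genes of pericytes and smooth muscle, 3 rose and 0 fell, the rises being the contractile genes Tagln (0.55 ± 0.14), Myh11 (0.51 ± 0.12) and Tpm2 (0.62 ± 0.16). Pdgfrb, the receptor that marks pericytes, had 23.5, 22.7 and 21.3 CPM in vitrified and 22.6, 23.8 and 24.3 CPM in fresh hippocampus, which overlapped (-0.07 ± 0.07, edgeR adjusted p = 0.420). It and Rgs5 (-0.07 ± 0.04), another pericyte marker, were named after their values were seen. All 5 tested blood cell genes rose, among them Alas2, the haem enzyme of red cells, with 2.07, 1.84 and 2.02 CPM in vitrified and 0.919, 0.737 and 0.922 CPM in fresh hippocampus (1.20 ± 0.25); the 4 globin genes share reads with similar genes and are uncertain. Of meningeal fibroblast genes, 8 of 14 rose and 1 fell, with the prostaglandin synthase Ptgds at 0.56 ± 0.03, the growth factor Igf2 at 0.58 ± 0.06 and the binding protein Igfbp2, the one that fell, at -0.61 ± 0.07. Of the choroid plexus list, 1 of 9 rose, or 2 without fresh replicate 1, and 4 fell, or 2 in a fit of only the 6 libraries; Ttr, the thyroxine carrier that fills this tissue, had only 10.2, 9.45 and 8.71 CPM in vitrified and 7.42, 6.14 and 5.71 CPM in fresh hippocampus.

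**Figure D2:**
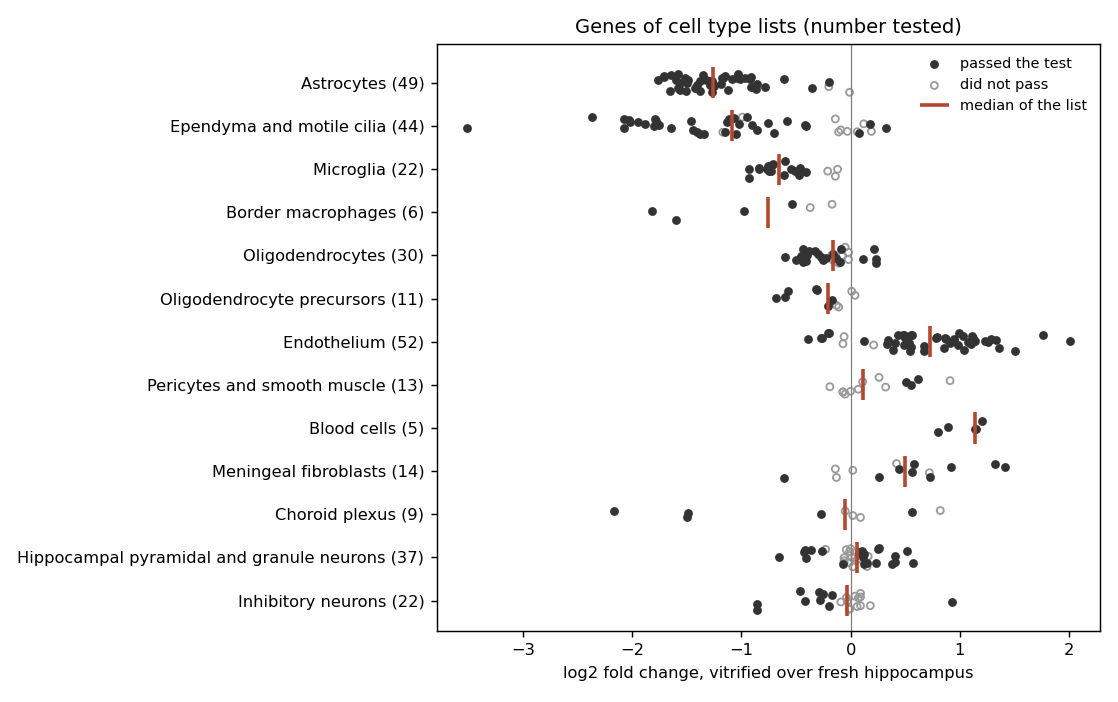
Log2 fold change, vitrified over fresh hippocampus, of each tested gene in 13 cell type lists, with the number tested in brackets; filled points passed the test, open points did not, and the red bar is the list's median. Astrocytes (-1.26), ependyma (-1.09) and microglia (-0.66) lie left of 0 and endothelium (0.73) lies right of 0.

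Neuronal transcripts changed less, and differed by hippocampal field. Of 12 tested genes of dentate granule cells, 8 rose and 1 fell (median 0.25), while of 6 CA1 genes 4 fell and 0 rose (median -0.39). Prox1, the transcription factor that sets granule cell identity (ENSMUSG00000010175.13, GRCm38 chromosome 1, 190118035 to 190170714, minus strand), had 140.1, 137 and 143 CPM in vitrified and 117, 116 and 120.2 CPM in fresh hippocampus, a rise of 0.25 ± 0.03. C1ql2, a secreted protein of mossy fibre synapses, had 107, 110.0 and 116 CPM in vitrified and 72.4, 74.1 and 77.4 CPM in fresh hippocampus (0.57 ± 0.04). Fibcd1 of CA1 had 213, 209 and 209.6 CPM in vitrified and 282, 282 and 279.9 CPM in fresh hippocampus (-0.42 ± 0.02), and Mpped1 (-0.41 ± 0.02) and the POU factor Pou3f1 (-0.43 ± 0.04) fell by a like amount. The libraries of the groups did not overlap for Prox1, C1ql2 or Fibcd1. How much dentate gyrus and CA1 each dissection held was not measured, and its part in these differences was not tested. Of CA2 genes 2 of 6 rose and 0 fell, and of CA3 genes 3 of 7 rose and 1 fell. Markers of neighbouring regions were mixed, with 2 of 9 thalamic genes higher and 3 lower, 3 of 10 striatal genes higher and 3 lower, and 6 of 10 genes of cortical layers higher and 3 lower. Zbtb20, a factor of all hippocampal pyramidal and granule cells that astrocytes also express, fell (-0.66 ± 0.05).

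Inhibitory neurons had 9 of 22 tested genes lower and 1 higher (median -0.04), or 8 lower and 3 higher with library totals. The GABA-making enzyme Gad2 (-0.20 ± 0.03), the vesicular transporter Slc32a1 (-0.25 ± 0.04) and parvalbumin, Pvalb (-0.28 ± 0.06), fell slightly. Among genes of immature neurons, 4 of 12 rose and 2 fell: doublecortin, Dcx, of migrating neurons (0.40 ± 0.07) and Neurod1 (0.43 ± 0.06) were higher and Sox4 (-0.51 ± 0.07) and Draxin (-0.69 ± 0.21) lower.

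Among transcripts of synaptic proteins, those of postsynaptic scaffolds and kinases fell more often than those of receptors and of release. Of 29 scaffold and kinase genes tested, 18 fell and 4 rose, with a median of -0.12. With library totals 15 fell and 9 rose, and without genes that share reads 14 fell and 6 rose. In the Shank, SAPAP and Homer families, which tie glutamate receptors to the actin of the spine, 8 of 10 fell and 0 rose (median -0.50). Shank3 (ENSMUSG00000022623.16, GRCm38 chromosome 15, 89499623 to 89560261, plus strand) had 175, 180.3 and 179 CPM in vitrified and 351, 349 and 343 CPM in fresh hippocampus, 1.95-fold lower (edgeR adjusted p = 3.2e-33). Shank1 (-0.78 ± 0.03), Shank2 (-0.38 ± 0.03), Dlgap3 (-0.71 ± 0.02) and Homer1 (-0.62 ± 0.03) fell too. Camk2a, the kinase of synaptic plasticity, had 3111, 3119 and 3153 CPM in vitrified and 4717, 4719 and 4551 CPM in fresh hippocampus (-0.58 ± 0.02). Its relatives Camk2d (0.23 ± 0.06) and Camk2g (0.29 ± 0.03) rose, so the family did not move as one.

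Many of these transcripts are known to travel into dendrites. Of 26 tested genes on a list of dendritic transcripts, which shares members with the scaffolds, 18 fell and 4 rose (median -0.28). Map2, the microtubule protein of dendrites, had 841, 860.4 and 863 CPM in vitrified and 1453, 1424 and 1442 CPM in fresh hippocampus (-0.75 ± 0.02). Ddn, a dendritic actin-associated protein (-0.63 ± 0.02), Ppp1r9b, which is the spine protein spinophilin (-0.77 ± 0.02), and the activity-induced Arc (-0.60 ± 0.03) fell. Cpeb1, which governs local translation, rose (0.56 ± 0.03), as did the AMPA receptor subunit Gria2 (0.14 ± 0.02).

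Receptor and release genes had smaller and mixed changes. Of 22 glutamate receptor genes, 7 rose and 5 fell. The kainate subunit Grik2 rose (0.33 ± 0.04), while the NMDA subunits Grin2b (-0.20 ± 0.02) and Grin3a (-0.46 ± 0.05) fell. Of GABA-A receptor genes 4 of 12 rose and 3 fell, the extrasynaptic subunit Gabrd being higher (0.43 ± 0.06). The small rises depended on scaling, since with library totals 12 glutamate receptor, 7 GABA-A receptor and 9 scaffold and kinase genes were higher. Of 22 genes of transmitter release, 10 rose, such as the SNARE Snap25 (0.26 ± 0.02) and the mossy fibre vesicle protein Synpr (0.46 ± 0.03), and 7 fell, such as the active zone organiser Rims1 (-0.31 ± 0.03). Of potassium channels, 10 of 32 rose and 13 fell, and of sodium, calcium and HCN channels 9 of 27 rose and 7 fell. The calcium channel Cacna1d (0.44 ± 0.03) and the sodium-activated potassium channel Kcnt1 (0.62 ± 0.04) were higher.

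Of 11 ion pump genes 3 rose, or 5 with library totals or with the offsets below, and 5 fell. In 5 pairs of related genes, chosen after their values were seen, the member known mainly from glia and the member of neurons or of many cell types were set side by side. The sodium pump subunit Atp1b2 of astrocytes had 219, 227 and 218 CPM in vitrified and 409, 401 and 398 CPM in fresh hippocampus (-0.86 ± 0.02), while Atp1b1, a beta subunit abundant in neurons, had 2305, 2305 and 2304 CPM in vitrified and 2191, 2189.9 and 2206 CPM in fresh hippocampus (0.07 ± 0.02). The metabotropic receptor Grm3, which astrocytes express, had 15.6, 15.2 and 15.4 CPM in vitrified and 39.8, 38.4 and 37.7 CPM in fresh hippocampus (-1.33 ± 0.06), while Grm2 of granule cells rose (0.41 ± 0.04). The carnitine transferase Cpt1a fell (-1.08 ± 0.06) and its neuronal relative Cpt1c rose (0.17 ± 0.03). Aldoa, the aldolase of most cells, was at 0.12 ± 0.02 against -1.38 ± 0.02 for Aldoc, and the neuronal glutamate carrier Slc1a1 at 0.07 ± 0.03 against -1.52 ± 0.02 for Slc1a2. The values of the neuronal partners were small and moved with the settings: with library totals Atp1b1 was at 0.12 and Slc1a1 at 0.13, and with offsets for GC content and length Aldoa was at 0.05. The call of Slc1a1 was lost without fresh replicate 1 or 2 or vitrified replicate 2 (edgeR adjusted p 0.0812 to 0.211). It was also lost with DESeq2 (DESeq2 adjusted p 0.0822).

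**Figure D3:**
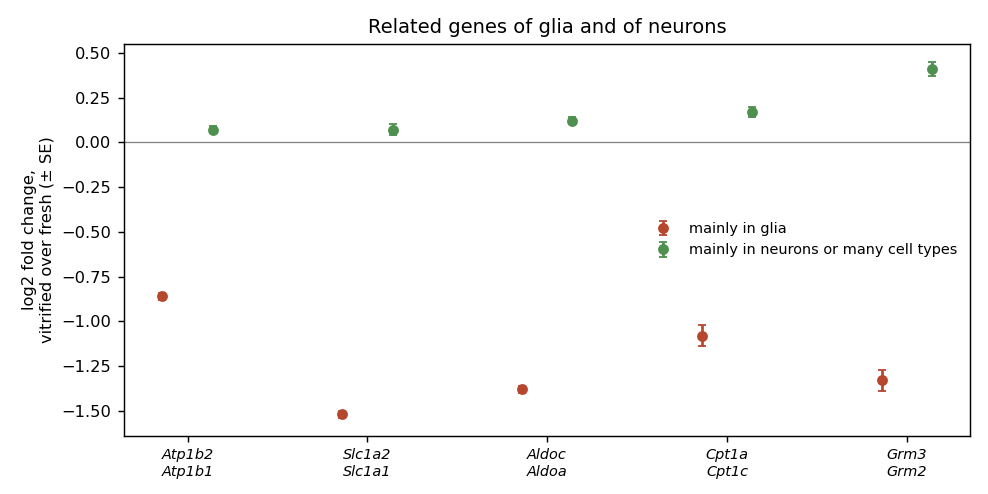
Log2 fold change, vitrified over fresh hippocampus, with its standard error, for 5 pairs of related genes; the member known mainly from glia is in red on the left and the member of neurons or many cell types in green on the right. In every pair the glial member fell, with values between -0.86 for Atp1b2 and -1.52 for Slc1a2, and the other member lies between 0.07 for Slc1a1 and Atp1b1 and 0.41 for Grm2.

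Genes of cell volume were mixed, with 6 of 17 higher and 7 lower. The taurine carrier Slc6a6 rose (0.47 ± 0.03), the inositol carrier Slc5a3 fell (-0.40 ± 0.05), and Nfat5, the transcription factor that answers hypertonicity, rose slightly (0.15 ± 0.03). Slc6a12, the betaine carrier, had 0.439, 0.888 and 0.379 CPM in vitrified and 0.184, 0.184 and 0 CPM in fresh hippocampus (2.14 ± 0.62), a call that was lost without vitrified replicate 2 (edgeR adjusted p 0.0531).

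Genes of iron handling and of several pathways of fuel use fell. Heph, the ferroxidase hephaestin that lets iron leave cells (ENSMUSG00000031209.14, GRCm38 chromosome X, 96455359 to 96574485, plus strand), had 1.69, 2.09 and 1.83 CPM in vitrified and 11.3, 10.7 and 9.83 CPM in fresh hippocampus, 5.64-fold lower (edgeR adjusted p = 1.2e-20), with a wide gap between the groups. Of 16 iron genes 9 fell and 2 rose. The metalloreductase Steap3 (-0.86 ± 0.12) and the secreted factor Bmp6 (-0.53 ± 0.15) fell, and the uptake genes Tfrc (0.12 ± 0.03) and Slc11a2 (0.20 ± 0.04) rose.

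Of 19 genes of fatty acid oxidation, 18 fell and 1 rose, with a median of -0.45; none of these genes stands in the astrocyte list, though astrocytes are known to hold much of this pathway. Cpt1a, which admits fatty acids to mitochondria, had 16.4, 16.1 and 15.9 CPM in vitrified and 34.99, 34.1 and 33.2 CPM in fresh hippocampus. The long-chain dehydrogenase Acadl (-0.90 ± 0.06), the thiolase Acaa2 (-0.83 ± 0.08) and Hadhb of the trifunctional protein (-0.68 ± 0.04) fell, as did Ppara, the nuclear receptor that drives the pathway (-1.36 ± 0.15). The exception was Cpt1c, described above. Of 32 genes of amino acid breakdown and one-carbon metabolism, 20 fell and 3 rose, or 18 and 5 with library totals. Without the 4 that also stand in the astrocyte list, a split made after the values were seen, 16 of 28 fell and 3 rose (median -0.17). Aass, the first enzyme of lysine breakdown (ENSMUSG00000029695.13, GRCm38 chromosome 6, 23072173 to 23132986, minus strand), had 1.82, 1.27 and 1.07 CPM in vitrified and 6.68, 5.95 and 5.65 CPM in fresh hippocampus (-2.13 ± 0.17), and Prodh of proline (-0.91 ± 0.07), Abat of GABA (-0.75 ± 0.03) and glutamate dehydrogenase, Glud1 (-0.72 ± 0.02), fell by less. The rises included Shmt1 (0.59 ± 0.17), whose call was lost without vitrified replicate 1 (edgeR adjusted p 0.0661).

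Of 23 cholesterol synthesis genes 15 fell and 0 rose (median -0.19), with Cyp51 at -0.55 ± 0.04 and Hmgcs1 at -0.43 ± 0.03. Of 75 respiratory chain genes 36 fell and 2 rose, by small amounts (median -0.09); the share was 14 of 37 in complex I and 9 of 10 in complex IV. With library totals 20 respiratory chain genes were lower and 9 higher, and 1 was higher without vitrified replicate 1 or fresh replicate 1. Beside all of these falls, the summed astrocyte level was lower as given above, and the part of astrocytes in them was not tested.

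**Figure D4:**
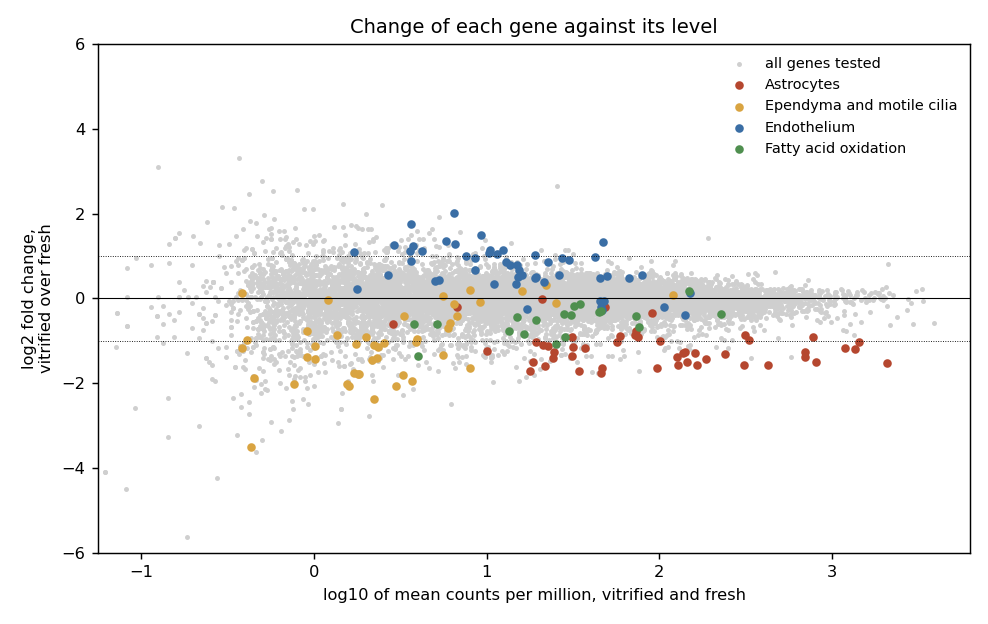
Log2 fold change, vitrified over fresh hippocampus, of each tested gene (grey) against log10 of its mean level in CPM over both groups; dotted lines mark 2-fold. Astrocyte genes (red, median -1.26) lie mostly below -1 across levels, ependymal genes (yellow) fall at low levels, endothelial genes (blue) lie mostly above 0, and genes of fatty acid oxidation (green) lie below 0 apart from Cpt1c; 17 genes of very low level lie outside the axes.

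Chaperones of the endoplasmic reticulum, which fold secreted and membrane proteins, were lower in vitrified tissue. Of 26 genes on that list 19 fell and 1 rose (median -0.33). Hspa5, the chaperone BiP (ENSMUSG00000026864.13, GRCm38 chromosome 2, 34771970 to 34777547, plus strand), had 262, 270.1 and 273 CPM in vitrified and 434, 436 and 422 CPM in fresh hippocampus (-0.68 ± 0.02, edgeR adjusted p = 1.0e-28), with no overlap. The cochaperones Sdf2l1 (-1.08 ± 0.09) and Dnajc3 (-0.61 ± 0.04), the disulphide isomerases Pdia4 (-0.65 ± 0.04) and Pdia6 (-0.58 ± 0.03), the lectins Calr (-0.48 ± 0.02) and Canx (-0.47 ± 0.03) and Hsp90b1 (-0.41 ± 0.02) fell together. Of the sensors that turn the response on, Eif2ak3 (-0.23 ± 0.06) and the target Xbp1 (-0.32 ± 0.04) fell, and Ern1 (0.10 ± 0.13, edgeR adjusted p = 0.553) did not pass. The gene that rose was the oxidase Ero1l (0.12 ± 0.04). It did not pass without vitrified replicate 1 (edgeR adjusted p 0.0836) or with DESeq2 (DESeq2 adjusted p 0.0795).

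The endoplasmic reticulum stress element (ERSE) is the known control element of these chaperones, a CCAAT box and a CCACG box 9 bases apart. It was searched for as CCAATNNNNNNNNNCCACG on both strands of the same RefSeq promoters, where N is any base. It occurred in 8 of 20 promoters of the list (40.0%) and in 19 of 11423 promoters of all tested genes (0.166%). The stretches around it are shown for 6 genes that fell and for Syvn1, a ubiquitin ligase of the reticulum that passed only with library totals (0.06 ± 0.04), with the element or its reverse complement in capitals. In GRCm38.p6 they lie at chr2:34772010-34772058 (plus strand) for Hspa5, chr10:86705518-86705566 (minus) for Hsp90b1, chr14:118937812-118937860 (plus) for Dnajc3, chr12:17266476-17266524 (plus) for Pdia6, chr8:84847060-84847108 (minus) for Calr, chr11:50325785-50325833 (minus) for Canx and chr19:6046517-6046565 (plus) for Syvn1.
Hspa5: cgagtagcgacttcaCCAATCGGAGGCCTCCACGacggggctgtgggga
Hsp90b1: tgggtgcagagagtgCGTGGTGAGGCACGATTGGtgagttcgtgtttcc
Dnajc3: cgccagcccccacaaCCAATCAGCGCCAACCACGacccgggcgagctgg
Pdia6: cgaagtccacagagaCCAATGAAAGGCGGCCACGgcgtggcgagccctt
Calr: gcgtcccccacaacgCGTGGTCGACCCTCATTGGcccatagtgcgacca
Canx: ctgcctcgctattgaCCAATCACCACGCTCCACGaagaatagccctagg
Syvn1: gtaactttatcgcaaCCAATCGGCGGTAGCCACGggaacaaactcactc
The eighth was Creld2, which also fell (-0.40 ± 0.08). Over all 19 genes with the element, 9 fell, 5 rose and 5 did not pass, with a median of -0.10. A match is a description of the letters and not a sign of binding.

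In other stress programmes falls outnumbered rises. Of 14 genes of the integrated stress response 1 rose, the factor Cebpb (0.40 ± 0.08), and 5 fell, including Atf4, its main effector (-0.14 ± 0.03, or -0.09 with library totals), Psat1 (-0.55 ± 0.03) and Slc7a11, the cystine carrier that also stands in the astrocyte list (-1.15 ± 0.05). With library totals 3 rose and 4 fell, and with offsets for GC content and length 2 rose. The share that fell in the main fit, 35.7%, was not far from the 25.3% of all genes, and the median was -0.07. Without Slc7a11, a split made after the values were seen, 4 of 13 fell and 1 rose (median -0.03). The proapoptotic Ddit3, a classical mark of this response, had 13.8, 15.4 and 16.9 CPM in vitrified and 16.6, 15.7 and 14.8 CPM in fresh hippocampus (-0.03 ± 0.08, edgeR adjusted p = 0.770), and was named after its values were seen. Of 18 cytosolic heat shock genes 9 fell and 2 rose. Without vitrified replicate 3 or fresh replicate 3 the rises numbered 1. The inducible Hspa1a, which shares reads with a near copy, had 24.5, 23.8 and 25.2 CPM in vitrified and 23.7, 22.7 and 20.3 CPM in fresh hippocampus and did not pass (0.14 ± 0.07, edgeR adjusted p = 0.0791), although it did without fresh replicate 1 (0.0313) or with library totals (0.0123). The small heat shock protein Hspb8 fell (-1.03 ± 0.09). Of 25 redox genes 16 fell and 1 rose, that one being the glutathione transferase Gsta4 (0.17 ± 0.05), which did not pass without vitrified replicate 3 (edgeR adjusted p 0.0546). The peroxiredoxin Prdx6 (-0.86 ± 0.03), the transferase Gstm1 (-1.10 ± 0.03) and the metallothioneins Mt1 (-0.63 ± 0.04), Mt2 (-0.66 ± 0.05) and Mt3 (-0.72 ± 0.05), all of them abundant in astrocytes, fell, as did the regulator Nfe2l2 (-0.71 ± 0.08).

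Immediate early genes, which neuronal activity and injury induce within minutes, were more often lower. Of 36 tested, 16 fell and 5 rose. Fos (ENSMUSG00000021250.13, GRCm38 chromosome 12, 85473890 to 85477273, plus strand) had 4.14, 5.08 and 4.92 CPM in vitrified and 10.1, 9.02 and 7.99 CPM in fresh hippocampus (-0.94 ± 0.12, edgeR adjusted p = 4.7e-09), and Fosb (-0.85 ± 0.10), Nr4a2 (-0.46 ± 0.05), the synaptic protein Nptx2 (-0.87 ± 0.05) and Inhba (-1.49 ± 0.09) fell. Jun (0.21 ± 0.03) and Nr4a1 (0.24 ± 0.04) rose, and 2 of the other rises were Klf2 and Klf4, given above among endothelial genes. The neuron-specific Npas4 did not pass (0.05 ± 0.07, edgeR adjusted p = 0.604).

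Of the clock genes 6 of 17 rose and 5 fell, with Per1 (0.39 ± 0.04), Per3 (0.43 ± 0.04) and the repressor Ciart (0.98 ± 0.08) higher and Rorb (-1.07 ± 0.08) lower; with library totals 2 were lower. The labels give no time of day for the dissections. Of glucocorticoid targets 2 of 14 rose and 5 fell: the pyruvate dehydrogenase kinase Pdk4 had 2.51, 3.299 and 3.73 CPM in vitrified and 9.93, 9.27 and 10.8 CPM in fresh hippocampus (-1.65 ± 0.13), while Fkbp5, a sensitive target, was at 0.02 ± 0.03 (edgeR adjusted p = 0.728). Without fresh replicate 3 the glucocorticoid rises numbered 1. Of hypoxia targets 3 of 14 rose and 4 fell, with Vegfa lower (-0.25 ± 0.05) and the mitophagy receptor Bnip3 higher (0.21 ± 0.04). Most cytokines of the inflammation list were too low to test. Of the 9 genes that could be, 2 rose, namely Nfkbia (0.28 ± 0.08) and the adhesion molecule Icam1 (0.61 ± 0.24), and 5 fell, among them Stat3 (-0.37 ± 0.05). The call of Icam1 was lost without fresh replicate 3 (log2 0.38) or vitrified replicate 1 or 3 (edgeR adjusted p 0.0537 to 0.225). It was also lost with DESeq2 (DESeq2 adjusted p 0.107). Without vitrified replicate 1 the falls numbered 3. Of the cell death genes 5 of 18 rose, such as the BH3-only gene Bbc3 (0.59 ± 0.12) and Apaf1 of the apoptosome (0.25 ± 0.07), and 2 fell, among them the survival gene Bcl2, with 8.97, 8.06 and 8.27 CPM in vitrified and 19.5, 17.2 and 18.4 CPM in fresh hippocampus (-1.12 ± 0.09). Without vitrified replicate 1 or 3 the rises numbered 3, and with DESeq2 2.

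Of developmental signalling targets 4 of 19 rose and 6 fell. Id1, a BMP target of endothelium, rose (0.73 ± 0.09), and Nrarp, a Notch feedback gene, fell (-1.01 ± 0.07). The Hedgehog receptor Ptch1 fell (-0.63 ± 0.05) and the Hedgehog factor Gli1 rose (0.79 ± 0.19). Of matrix genes 7 of 28 rose and 11 fell. In the basement membrane, Lama5 (1.09 ± 0.10), Col4a1 (0.44 ± 0.04) and Agrn (0.40 ± 0.02) rose while Sparc (-1.16 ± 0.02), made by astrocytes among other cells, fell. The chondroitin sulphate proteoglycans of the brain matrix fell, with Bcan at -0.61 ± 0.02, Ncan at -0.57 ± 0.03 and Acan, of perineuronal nets, at -0.46 ± 0.12. Thbs4, an astrocytic thrombospondin, had 6.96, 6.47 and 5.56 CPM in vitrified and 24.2, 24.1 and 24.6 CPM in fresh hippocampus (-1.94 ± 0.08).

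Of 25 lysosomal genes 0 rose, or 1 with library totals, and 15 fell, such as Lamp1 (-0.37 ± 0.02) and the tetraspanin Cd63 (-0.79 ± 0.05). Of 34 cytoskeletal genes 15 fell, such as Map1a (-0.55 ± 0.02), the heavy neurofilament Nefh (-0.33 ± 0.04) and Vim (-0.41 ± 0.06), and 6 rose, or 10 with library totals, such as the tubulin-binding Stmn1 (0.21 ± 0.03). Of 75 ribosomal protein genes 32 fell and 1 rose, with a median of -0.06; without vitrified replicate 2, 18 fell, and with library totals 17 fell and 8 rose. Of 8 replication-dependent histone genes that could be tested, 7 fell, but 5 of the 8 share reads with near copies. In a fit without genes that share reads, 3 fell and 0 rose.

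Among genes with at least 5 CPM, several of the largest rises were of genes not on the endothelial list. The part of endothelium in the rises of these genes was not tested. Ndn, the growth suppressor necdin of neurons (ENSMUSG00000033585.5, GRCm38 chromosome 7, 62346569 to 62350262, plus strand), was the most abundant of them, with 278, 273 and 282 CPM in vitrified and 105, 102 and 102 CPM in fresh hippocampus (1.43 ± 0.03, edgeR adjusted p = 1.4e-38). The vitrified libraries stood far above the fresh ones. The purine oxidase Xdh rose (1.64 ± 0.15), and the phospholipase Pla2g4e had 10.8, 10.5 and 10.04 CPM in vitrified and 3.06, 3.499 and 4.06 CPM in fresh hippocampus. The platelet and endothelial receptor Pear1 (1.58 ± 0.16), the ceramidase Acer2 (1.55 ± 0.15), Ushbp1 (1.49 ± 0.18), the adaptor She (1.40 ± 0.16), the mitotic checkpoint kinase Bub1b (1.41 ± 0.14), the matrix protein Fmod (1.41 ± 0.16) and otoferlin, Otof (1.38 ± 0.11), were also among them.

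The 15 largest falls at that level had varied roles, and 8 of them, such as Heph, Aass and Thbs4, are given above. Papss2, which makes the sulphate donor, had 7.27, 6.98 and 7.58 CPM in vitrified and 26.3, 26.5 and 26.4 CPM in fresh hippocampus (-1.86 ± 0.08). Dio2, the deiodinase that activates thyroid hormone in astrocytes, had 20.9, 19.4 and 20.3 CPM in vitrified and 67.96, 68.1 and 69.1 CPM in fresh hippocampus (-1.76 ± 0.05). Klhdc7a (-1.98 ± 0.10), the cytochrome Cyp2j9 (-1.80 ± 0.08), the thioesterase Acot11 (-1.73 ± 0.05), the Rac activator Prex2 (-1.72 ± 0.04) and the peptide Apln (-1.67 ± 0.07) were the others. No gene had 0 counts in every library of one group with at least 1 CPM on average in the other. Among the 10 most abundant genes, Cpe, a peptide-processing enzyme, fell (-0.60 ± 0.02), with 2349, 2344 and 2343 CPM in vitrified and 3568, 3568 and 3541 CPM in fresh hippocampus. Kif5a, a motor of axonal transport (-0.43 ± 0.02), also fell, and Ncdn rose (0.17 ± 0.02).

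Membrane-integrated structures are named in the title of the series, so the changes were also read by class of protein and transcript. Membrane-spanning stretches were predicted from the coding sequences of GENCODE M21 by hydropathy alone, for 14246 genes. Of 4333 genes with 1 or more stretches, 24.1% rose and 28.5% fell, against 23.9% and 24.3% of the 9913 with none. Among the 608 with 6 or more, 28.9% rose and 26.6% fell. Medians of all these classes lay between -0.01 and 0.02. The falls given above of Slc1a2, Aqp4 and Kcnj10 stood beside rises of other genes of membrane proteins, such as Slco1a4 and Flt1.

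Length of the 3′ untranslated region showed a larger gradient in the share of genes that fell. From the quintile of genes with the shortest to the quintile with the longest regions, 17.8%, 19.2%, 22.2%, 29.5% and 39.1% fell, and 26.0%, 27.4%, 25.7%, 22.2% and 18.6% rose. Over all levels together, falls over 2-fold ran the other way, with 3.61% of genes in the quintile of shortest and 2.07% in that of longest regions. Whole transcript length, which includes the region, gave nearly the same gradient of falls, with 16.5%, 20.4%, 23.4%, 28.97% and 38.2% lower. Rises showed no such gradient by transcript length, with 21.8%, 25.8%, 26.03%, 23.1% and 22.8% higher. Long regions are more common in abundant genes, which pass the test more often, so the split was repeated within quintiles of level. Among the most abundant quintile, 58.4% of genes with the longest regions fell, against 30.5% of those with the shortest. Across 14246 genes, Spearman's rho between length and log2 fold change was -0.15 for vitrified over fresh and -0.10 for snap-frozen over fresh; genes are not independent replicates, and both values share the fresh libraries. The part of length in any single gene was not tested.

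**Figure D5:**
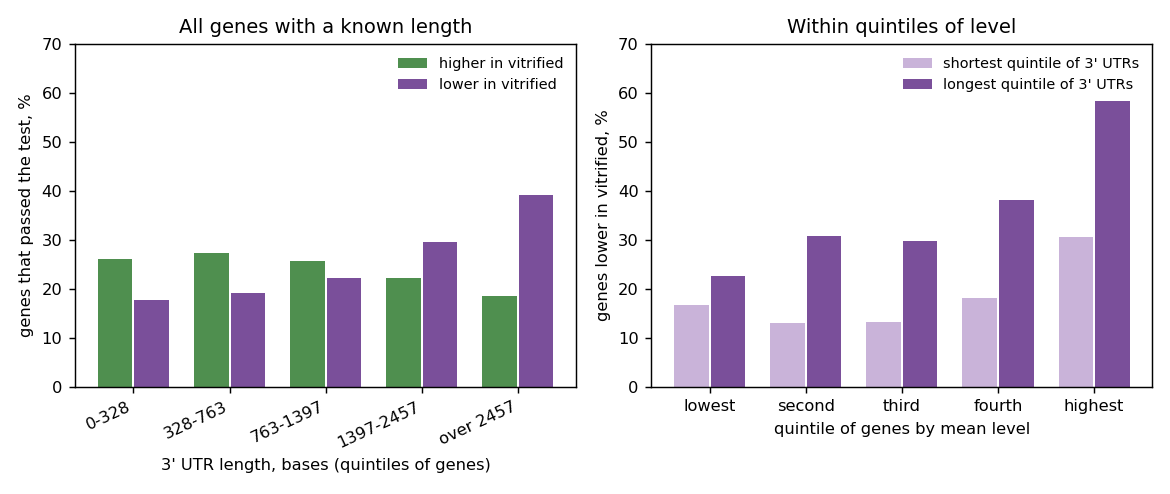
Left: share of genes that passed the test, in %, higher (green) or lower (purple) in vitrified hippocampus, for quintiles of genes by length of the 3′ untranslated region in bases. Right: share lower in vitrified hippocampus among genes with the shortest (light) and longest (dark) regions within quintiles of mean level; the dark bar is higher at every level, 58.4% against 30.5% at the highest.

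The same treatment of cortex let the effect of vitrification be compared between tissues. In a fit over all 18 libraries, the effect differed between hippocampus and cortex for 1913 of 14827 genes (12.9%), 873 higher and 1040 lower in hippocampus, and by over 2-fold for 216 (1.46%). For 40 of 49 astrocyte genes, a list counted here after values of the difference had been seen, vitrified over fresh was lower in hippocampus than in cortex and for 0 higher, against 7.01% and 5.89% of all genes (median difference -0.49). The difference, hippocampus minus cortex on the log2 scale, was -0.34 ± 0.05 for Aqp4 (edgeR interaction test, adjusted p = 1.1e-05), -0.21 ± 0.04 for Gfap (5.8e-04) and -0.55 ± 0.04 for Slc1a3 (1.4e-15). Csf1r was at -0.75 in hippocampus and -0.14 in cortex, a difference of -0.60 ± 0.05 (1.7e-11). For 26 of 52 endothelial genes vitrified over fresh was higher in hippocampus than in cortex and for 1 lower (median difference 0.43), with 0.45 ± 0.10 for Cldn5 (0.00116) and 0.83 ± 0.17 for Sox17 (4.2e-04). Hspa5 fell alike in both tissues (-0.67 in hippocampus and -0.66 in cortex), with a difference of -0.00 ± 0.04 whose interval leaves room for small differences (adjusted p = 0.981). Ttr had the largest difference of these, 8.58 ± 0.26, since vitrified cortex held 0.943 to 1.56 CPM against 288 to 376 CPM in fresh cortex.

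Snap-frozen hippocampus was compared with the same fresh libraries, so its values are only set beside those of vitrified tissue. Of the 49 astrocyte genes, 47 were lower in vitrified tissue, while in snap-frozen tissue 33 were higher and 9 lower than in fresh tissue (median 0.25). Over all genes, 62.2% differed between snap-frozen and fresh tissue in either direction. The shares of all genes higher and lower in snap-frozen tissue are not given apart here. The snap-frozen counts for lists therefore have no share of the same direction beside them. Aqp4 was at 45.9, 46.8 and 48.1 CPM in vitrified and 246, 251 and 249.8 CPM in snap-frozen hippocampus, against 147, 148 and 145 CPM in fresh hippocampus. Endothelial genes were mostly higher in both states, with 48 of 52 higher in snap-frozen tissue. Sox17 stood at 2.01 ± 0.13 in vitrified and 2.01 ± 0.12 in snap-frozen tissue over fresh. Shank3 was at -0.97 ± 0.03 and -0.97 ± 0.02, Hspa5 at -0.68 ± 0.02 and -0.31 ± 0.02, and Heph at -2.50 ± 0.14 and 0.69 ± 0.08 in the same order. Tcf7l2, a thalamic marker, was at -0.50 ± 0.16 in vitrified tissue and 4.95 ± 0.07 in snap-frozen tissue over fresh, and its call in vitrified tissue was lost without fresh replicate 1 (edgeR adjusted p 0.126) or vitrified replicate 2 (0.0506). Of 9 tested thalamic markers 9 were higher in snap-frozen tissue. The part of thalamic tissue in the snap-frozen values was not tested.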

How the data were processed

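The authors deposited expected counts per gene, 1 table for each tissue, after alignment with HISAT2 2.0.4 to GRCm38.p6 (both per the submitters' processing notes). Which counter, strand setting and annotation followed is not given in the sources used here. In the 6 libraries 4.65% to 4.95% of genes held values that were not whole, which marks reads shared between genes; 1157 genes tested held one. Counts were rounded. All 9 hippocampus libraries were fitted together in edgeR 4.0.16 (R 4.3.3, limma 3.58.1) with TMM factors, filterByExpr and the quasi-likelihood test, and all 18 for the difference between tissues. DESeq2 1.42.0 was an alternative, beside other scalings, filters, fits and each replicate left out. On counts simulated for 14243 genes, the test called 93.9% of 2-fold rises, 96% of 2-fold falls and 0.0356% of unchanged genes. The simulation gave every gene the same spread and changed only 200 genes. In the data 49.1% of genes passed, so these rates need not hold there. No replicate pair agreed within sampling noise, but this does not tell separate animals from separate preparations. Each library was counted as a replicate. The lower limit at a count of 0, 3 counts, was 0.188 to 0.190 CPM in vitrified and 0.184 CPM in fresh hippocampus. Positions and lengths come from GENCODE M21, promoters from RefSeq, and membrane-spanning stretches from windows of 19 residues with a mean hydropathy of at least 1.6, apart from those within the first 30 residues.

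Members and lists were chosen with earlier results of these data known. Named genes were the 15 largest rises and falls of at least 5 CPM without overlap of the groups, marked genes of each list, up to 3 members per list, role and direction with the smallest p, the 10 most abundant genes, and genes at 0 in 1 group; some of them are not reported here. These further genes were chosen after their values were seen: Acaa2, Acan, Aif1, Alas2, Aldoa, Creld2, Ddit3, Ern1, Hes5, Id3, Inhba, Nfe2l2, Nr4a1, Pdgfrb, Ppara, Rgs5, Sdf2l1, Slc1a1, Slc6a11, Slc6a9, Spag16, Syvn1, Trem2, Tyrobp.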

Additional observations from a re-analysis of the deposited data

Results flagged for a closer look

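For 11 of 12 genes compared between the tissues, the effect of vitrification over fresh tissue differed between hippocampus and cortex by the interaction test of edgeR, against 12.9% of all genes. The 12 were picked by hand with earlier results of these data known, so their share says nothing about genes in general. Each tissue had its own fresh libraries. Differences are hippocampus minus cortex on the log2 scale. Of astrocyte genes, Aqp4 was at -1.63 in hippocampus and -1.29 in cortex, a difference of -0.34 (adjusted p = 1.1e-05), Gfap at -1.56 and -1.35, a difference of -0.21 (5.8e-04), and Slc1a3 at -1.54 in hippocampus, a difference of -0.55 (1.4e-15). The ependymal Foxj1 was at -1.63 in hippocampus and -0.99 in cortex, a difference of -0.64 (0.0203), and the microglial Csf1r at -0.75 and -0.14, a difference of -0.60 (1.7e-11). Of endothelial genes, Cldn5 was at 0.86 in hippocampus and 0.41 in cortex, a difference of 0.45 (0.00116), and Sox17 at 2.03 and 1.20, a difference of 0.83 (4.2e-04). The scaffold gene Shank3 differed by -0.16 (0.00741), falling in both tissues, with -0.95 in hippocampus and -0.79 in cortex.

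Fos was at -0.92 in hippocampus and -1.42 in cortex, a difference of 0.50 (adjusted p = 0.0163), and Heph at -2.48 and -1.86, a difference of -0.63 (0.0348). The calls of Foxj1, Fos and Heph were lost with DESeq2 (adjusted p = 0.0502, 0.0555 and 0.0893) and when single libraries were left out. Foxj1 was lost without vitrified hippocampus replicate 1 or 2 or vitrified cortex replicate 1 (edgeR adjusted p 0.0618 to 0.0818). Fos was lost without vitrified hippocampus replicate 2 or 3, fresh hippocampus replicate 3 or vitrified cortex replicate 2 (0.0577 to 0.0830). Heph was lost without vitrified hippocampus replicate 1 or 3, fresh hippocampus replicate 1 or vitrified cortex replicate 2 (0.0653 to 0.124). Ttr was at 0.57 in hippocampus and -8.01 in cortex, a difference of 8.58 (9.4e-27). Ttr is the leading transcript of choroid plexus, and how much of that tissue each dissection held was not measured.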

How the results depend on the processing

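The counts of genes higher, lower and over 2-fold changed in vitrified hippocampus, and those of the difference between tissues, each stayed within 1.5 times their main values under every alternative run. Leaving out 1 library gave 3056 to 3201 genes higher and 3320 to 3393 lower, 167 to 188 and 370 to 403 of them over 2-fold, and 640 to 701 and 897 to 972 for the difference between tissues. DESeq2 called 2580 higher and 2997 lower, and without genes that share reads the counts were 3338 and 3409. The labels number the replicates 1 to 3 in each group without saying that a number marks a shared animal. Deviations from the group means of same-numbered vitrified and fresh libraries correlated at 0.00976, 0.00674 and 0.0095 over 11694 genes. Replicates differed little beyond sampling noise, so a shared animal might leave no mark here, and whether the numbers pair the libraries cannot be told. With a replicate block 3431 genes were higher and 3644 lower, 167 and 383 over 2-fold, and 865 and 1024 for the difference between tissues. Genes under about 1 CPM rest on few counts, and their fold changes are the least certain.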
